A study of Homo sapiens with 7 samples.

Results

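Collagen chain genes encode the polypeptide chains of the collagens, and they were taken here as every gene with a symbol of COL, a type number, the letter A and a chain number. They comprised 43 of the 20046 genes with a probe on the array. Together they had 73 probes, 18 of them had several probes, and each was read from its probe with the highest mean non-normalized signal. A gene counted as detected where its detection p value was under 0.05, and by that measure 24 collagen chain genes were detected on at least 1 of 7 arrays, 10 on all 7 arrays and 19 on none. With 7 arrays, a probe at background can pass this limit on 1 of them by chance. Of the genes detected on 1 array, COL2A1, COL11A1 and COL14A1 had detection p values there of 0.025, 0.048 and 0.047, and COL10A1 0.0026.

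Collagens are the main structural proteins of the extracellular matrix, and each molecule is a triple helix wound from chains that are encoded by separate genes or by copies of the same gene. Fibrillar collagens form cable-like fibrils, type IV collagen forms the sheet of basement membranes, type VI collagen forms beaded filaments at the cell surface, and smaller classes sit on fibrils or span the plasma membrane. Invasive fibrosarcoma cells meet and degrade this matrix, for which MT1-MMP, a membrane-anchored metalloproteinase, is well known.

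HT1080, an established human fibrosarcoma cell line, has little PTK7 of its own and much active MT1-MMP. PTK7 is a membrane pseudokinase of the Wnt/planar cell polarity pathway that proteases cut into fragments. Gene expression was measured with Illumina HumanHT-12 v4 bead arrays in 7 HT1080 lines, with 1 array per line and all arrays on 1 chip, so the number of arrays limits the precision and no test between lines could be made. The question put to the arrays was how intact PTK7 and its fragments differ in their downstream effect on transcription.

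An shRNA silenced PTK7 in the shPTK7 cells, which pooled several selected clones. PTK7 cells overexpressed the full-length membrane protein, and Chz cells its Chuzhoi mutant, which has an additional MT1-MMP cleavage site. The sPTK7 cells produced the soluble ectodomain. The cPTK7/726-1070 cells produced the cytoplasmic fragment left after ADAM and γ-secretase cleavage, and the cPTK7/622-1070 cells the membrane fragment left after MT1-MMP cleavage, delivered to the plasma membrane by a signal peptide. By the immunoblots of the study, part of the cPTK7/622-1070 construct was itself cut to a form similar to cPTK7/726-1070. All constructs were stably transfected and every culture was grown for 72 h. The HT1080 array, the reference of all comparisons, is labelled as a scrambled control, whereas the methods of the study name parental HT1080 cells as the comparator.

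Signals below are background-corrected and quantile-normalized intensities on a linear scale, and they can be set against each other between lines for 1 probe but not between probes. The lowest signal among detected probes lay between 53.8 and 60.9 on the 7 arrays. A gene was counted as higher or lower in a line where it differed at least 2-fold from HT1080 and was detected on the brighter array. Where the dimmer array did not detect it, the lowest detected signal of that array stood in for its value and the fold is given as "at least". The PTK7 probe with the highest mean signal had signals of 112 in PTK7, 137 in Chz and 104 in HT1080 cells. It was not detected in shPTK7, sPTK7, cPTK7/726-1070 and cPTK7/622-1070 cells. A second PTK7 probe was detected in Chz cells at 69.1 and in HT1080 cells at 57.1, and not in PTK7 cells or the other lines. Whether either probe lies inside the constructs is not known. The mesenchymal markers VIM, CDH2, SPARC and CD44 were detected on all 7 arrays, while 0 of 4 endothelial and 0 of 2 myogenic markers were detected on any. FN1 was detected on 6 arrays. Of the 5 epithelial markers, KRT18 was detected on all 7 arrays, EPCAM and CLDN4 on 1 each, and CDH1 and KRT19 on none. Of 3 leukocyte markers, CD14 was detected on 6 arrays, with 103 in HT1080 cells, and PTPRC and CD3E on none. The mesenchymal markers moved with some of the results below, since CDH2 was 2.42-fold lower in PTK7 and 2.14-fold lower in cPTK7/726-1070 cells and SPARC 2.88-fold lower in PTK7 cells, each against HT1080 cells. The summed signal of the 5 mesenchymal markers ranged from 68438 to 110742 over the arrays. VIM alone had 43630 to 57034, so the sum says little of CDH2 and SPARC. The part of these markers in the collagen values was not tested.

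RefSeq promoter windows, running from 250 bases before to 50 bases after a transcription start in GRCh38.p14, were matched for 31 of the 43 genes. Those of COL4A1 and COL4A2 are shown because these genes start 127 bases apart on opposite strands, so that their windows share 226 bases, and because their signals are set side by side below. Those of COL6A3 and COL7A1 are shown because these genes were the lower and the higher extreme among the collagen chain genes detected on all 7 arrays in PTK7 cells. Capitals mark, on either strand, the GC box with the letters GGGCGG, the so-called CAAT box, which reads CCAAT, and the TATA box with the letters TATAAA. The COL4A1 window is chr13:110307108-110307407 (minus strand), the COL4A2 window chr13:110307034-110307333 (plus strand), the COL6A3 window chr2:237414115-237414414 (minus strand) and the COL7A1 window chr3:48595280-48595579 (minus strand).
COL4A1: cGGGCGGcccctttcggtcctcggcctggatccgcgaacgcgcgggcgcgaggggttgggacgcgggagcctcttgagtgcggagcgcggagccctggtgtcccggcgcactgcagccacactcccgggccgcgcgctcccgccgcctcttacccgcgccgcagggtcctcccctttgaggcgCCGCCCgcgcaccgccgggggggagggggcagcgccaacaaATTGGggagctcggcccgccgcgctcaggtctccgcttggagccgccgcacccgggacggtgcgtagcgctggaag
COL4A2: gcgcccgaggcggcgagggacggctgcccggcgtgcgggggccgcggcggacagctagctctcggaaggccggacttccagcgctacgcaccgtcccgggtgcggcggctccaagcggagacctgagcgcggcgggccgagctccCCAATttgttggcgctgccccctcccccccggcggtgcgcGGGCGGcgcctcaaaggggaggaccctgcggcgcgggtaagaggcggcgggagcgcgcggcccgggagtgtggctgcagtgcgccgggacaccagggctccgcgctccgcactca
COL6A3: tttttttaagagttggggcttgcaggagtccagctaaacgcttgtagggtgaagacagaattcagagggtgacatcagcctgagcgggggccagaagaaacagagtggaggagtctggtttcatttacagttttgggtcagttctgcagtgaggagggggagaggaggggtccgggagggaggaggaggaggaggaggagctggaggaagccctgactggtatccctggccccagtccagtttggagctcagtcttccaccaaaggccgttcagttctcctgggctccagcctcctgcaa
COL7A1: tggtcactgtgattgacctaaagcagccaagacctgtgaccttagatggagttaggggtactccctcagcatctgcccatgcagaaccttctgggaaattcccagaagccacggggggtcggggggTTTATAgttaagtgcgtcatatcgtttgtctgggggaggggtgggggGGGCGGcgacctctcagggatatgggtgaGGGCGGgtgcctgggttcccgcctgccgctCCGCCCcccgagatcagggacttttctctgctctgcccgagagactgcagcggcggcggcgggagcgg

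The COL4A1 window held 2 GC boxes and 1 CAAT box and the COL4A2 window 1 of each, which their overlap lets them share. The COL7A1 window held 3 GC boxes and 1 TATA box, and the COL6A3 window held none of these motifs. Over the collagen chain genes, 21 of 31 had a GC box, 11 of 31 a CAAT box and 6 of 31 a TATA box in at least 1 window. Counted by window, 24 of 43 had a GC box, 13 of 43 a CAAT box and 7 of 43 a TATA box. Over all 35116 promoter windows the shares were 45.0%, 34.6% and 11.5%. Several windows per gene raise the gene counts, since 8 of the 31 genes had more than 1 window. The letters TGACTCA of the AP-1 motif were found in 0 of 31 genes and in 4.95% of all windows. Those of the CRE motif, TGACGTCA, were found in 0 of 31 genes and in 1.85% of all windows.

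Across lines, 11 of the 24 detected collagen chain genes differed at least 2-fold from HT1080 cells in at least 1 line, against 13.1% of all detected genes. Of these, 8 were lower and 4 higher somewhere, and COL4A5 was counted in both directions. The 29 differences of a gene in a line were 23 lower and 6 higher, where all detected genes gave 1501 lower and 1323 higher. COL5A1 and COL11A2, which had their highest signal on the HT1080 array, made up 10 of the 23. The highest array exceeded the lowest at least 2-fold for 13 of 24 collagen chain genes, against 26.1% of the 13580 genes detected on at least 1 array. The span was at least 14.6-fold for COL8A1, with the highest signal in sPTK7 and the lowest in PTK7 cells. Among genes detected on all 7 arrays COL6A3 had the widest span, 10.8-fold, with the highest signal in Chz and the lowest in PTK7 cells. In bulk cultures such as these, fewer cells expressing a gene and less RNA per cell cannot be told apart.

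**Figure D1:**
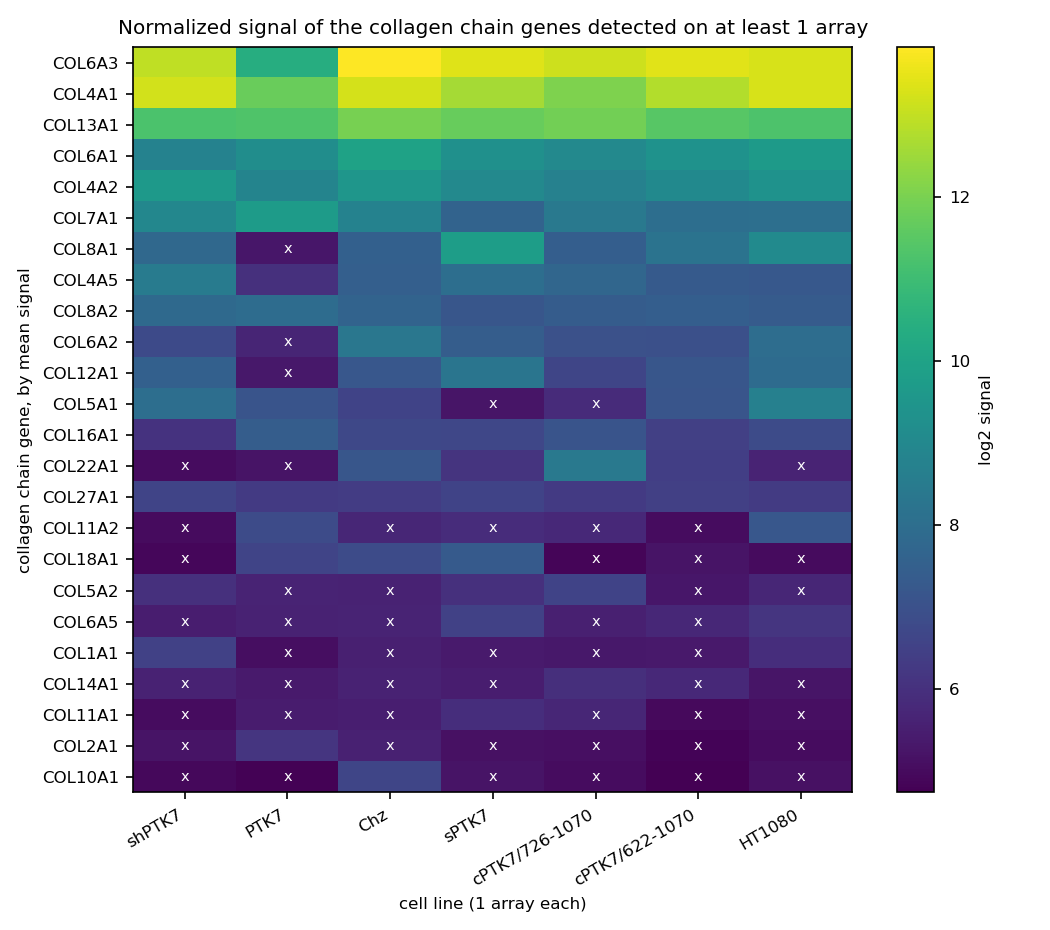
Log2 signal (colour) of the 24 collagen chain genes detected on at least 1 array, ordered from top to bottom by mean signal, in each of 7 lines with 1 array per line, where a cross marks an array on which the gene was not detected. Rows are to be read from left to right, since different probes cannot be set against each other, and COL6A3 and COL4A1 have their lowest signals, 1348 and 3474, in PTK7 cells.

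PTK7 cells had the most collagen chain genes past 2-fold, 8, although without background correction they tied with cPTK7/726-1070 cells at 4. Of 24 detected genes, 7 were lower (COL4A1, COL4A5, COL5A1, COL6A2, COL6A3, COL8A1 and COL12A1), where 3.52% of all detected genes were lower, and COL7A1 alone was higher, where 2.46% of all detected genes were higher. In cPTK7/726-1070 cells, 5 were lower (COL4A1, COL5A1, COL8A1, COL11A2 and COL12A1) against a background of 1.56%, and COL22A1 was higher against 1.49%. Both comparisons share the HT1080 array. Against the median of the 7 arrays, the differences of COL4A1, COL8A1 and COL12A1 in cPTK7/726-1070 cells and of COL5A1 in PTK7 cells were under 2-fold. COL11A2 in cPTK7/726-1070 cells could not be compared with that median, since only 2 of the 7 arrays detected it.

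The remaining lines had fewer differences. Chz cells had 3 lower genes (COL5A1, COL8A1 and COL11A2) against a background of 1.77%, and 2 higher genes (COL18A1 and COL22A1) against 2.05%. In shPTK7 cells, COL6A2, COL8A1 and COL11A2 were lower, 3 of 24 against 1.6%, and COL4A5 was higher, 1 of 24 against 1.19%. The sPTK7 cells had COL5A1 and COL11A2 lower, 2 of 24 against 1.84%, and COL18A1 higher, 1 of 24 against 1.84%. In cPTK7/622-1070 cells, COL5A1, COL6A2 and COL11A2 were lower, 3 of 24 against 0.758%, and 0 of 24 were higher against 0.7%.

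**Figure D2:**
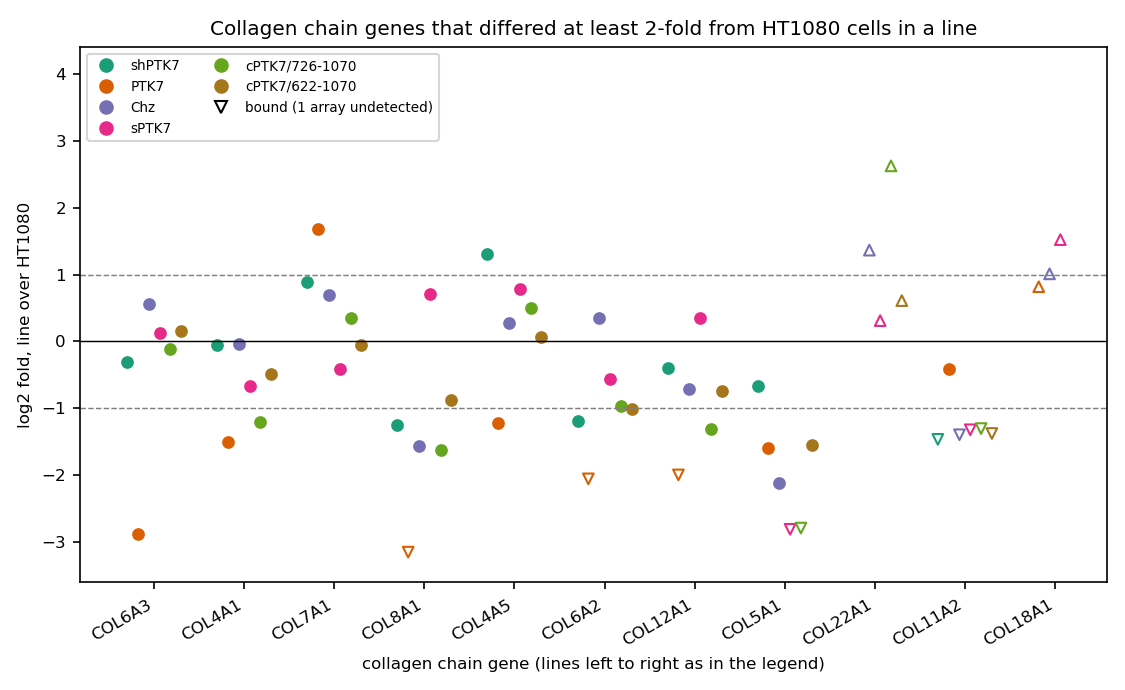
Log2 fold of each line over HT1080 cells for the 11 collagen chain genes that differed at least 2-fold in at least 1 line, 1 array per line, with filled points for measured folds, open triangles for folds that are bounds, and dashed lines at 2-fold. COL5A1 is below 0 in all 6 lines, and the lowest measured point is COL6A3 in PTK7 cells at -2.87.

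Over the 24 detected genes, with undetected signals set to the lowest detected signal of their array, the median log2 fold over HT1080 was -0.05 in shPTK7, -0.03 in PTK7, 0.02 in Chz, 0.09 in sPTK7, 0.01 in cPTK7/726-1070 and -0.0046 in cPTK7/622-1070 cells. The medians over all 13580 detected genes were -0.03, 0.07, 0.02, 0.04, 0.05 and 0.04 in the same order of lines. Several of these medians equal the difference between the lowest detected signals of the arrays compared, so they say little of the genes. With the signals as measured, undetected ones included, the collagen medians were -0.43 in PTK7, 0.28 in Chz and -0.33 in cPTK7/622-1070 cells. Over all detected genes they were -0.01, -0.02 and 0.001 in these lines. Among the 10 genes detected on all 7 arrays, the median was -0.29 in PTK7 cells, with 6 lower and 4 higher whatever the size of the difference. In Chz cells it was 0.28, with 2 lower and 8 higher. It was 0.11 in shPTK7, -0.01 in cPTK7/726-1070 and 0.01 in cPTK7/622-1070 cells, each with 5 lower and 5 higher. In sPTK7 cells it was -0.16, with 6 lower and 4 higher. Over the 9550 genes detected on all 7 arrays the medians were -0.005 in PTK7 and -0.02 in Chz cells, and between -0.03 and 0.02 in the other lines.

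**Figure D3:**
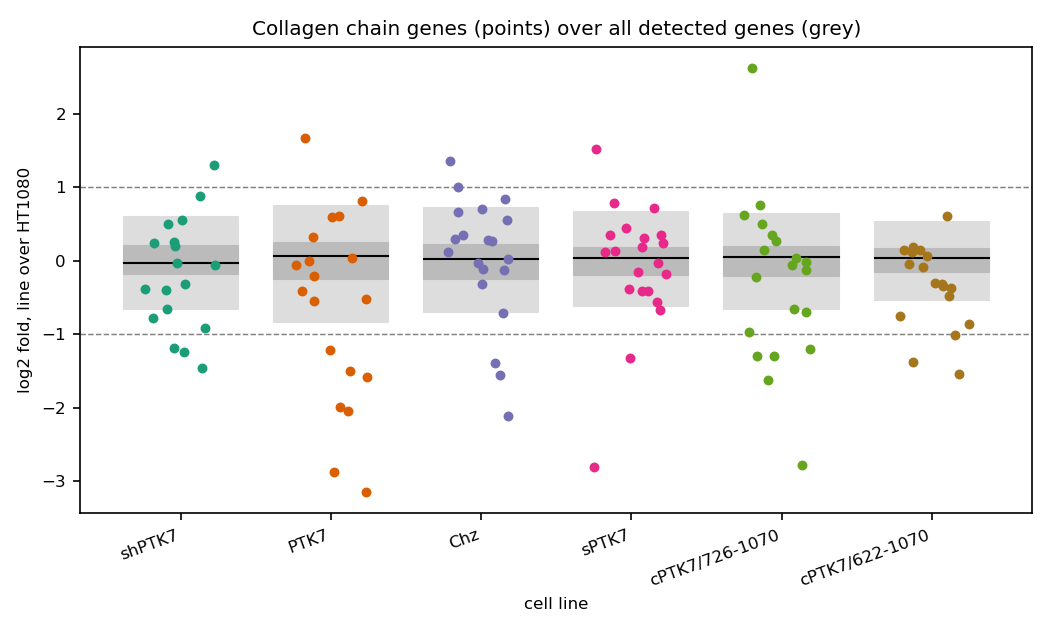
Log2 fold over HT1080 cells of each collagen chain gene with a fold (points) in each of 6 lines, over the 13580 detected genes, whose median is the black line, whose middle 50% is the dark band and whose 5 to 95% range is the light band. Points outside the light band are more numerous below it than above it in PTK7 cells, where 7 genes were lower and 1 was higher than 2-fold.

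Type IV collagen chains make the network of basement membranes, and COL4A1 and COL4A2 encode its most widespread chains. COL4A1 had signals of 9493 in shPTK7, 3474 in PTK7, 9601 in Chz, 6177 in sPTK7, 4267 in cPTK7/726-1070, 7039 in cPTK7/622-1070 and 9841 in HT1080 cells. PTK7 cells (2.83-fold lower) and cPTK7/726-1070 cells (2.31-fold lower) stood below all other lines, while shPTK7 and Chz cells were within 1.04-fold of HT1080. COL4A2 had signals of 793 in shPTK7, 455 in PTK7, 724 in Chz, 514 in sPTK7, 423 in cPTK7/726-1070, 527 in cPTK7/622-1070 and 668 in HT1080 cells. No line differed 2-fold for COL4A2, and its widest difference from HT1080 was 1.58-fold lower in cPTK7/726-1070 cells.

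Both chains had their lowest signals in PTK7 and cPTK7/726-1070 cells, and their highest in shPTK7, Chz and HT1080 cells. Pearson's r of their log2 signals over the 7 arrays was 0.91, given as a description of arrays that share a chip and a normalization.

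COL4A5 encodes a chain of the specialised basement membranes of kidney, ear and eye. Its signals were 369.7 in shPTK7, 64.6 in PTK7, 182 in Chz, 258 in sPTK7, 212 in cPTK7/726-1070, 157 in cPTK7/622-1070 and 150.1 in HT1080 cells. It was 2.46-fold higher in shPTK7 cells and 2.32-fold lower in PTK7 cells than in HT1080 cells. COL4A5 was the only collagen chain gene past 2-fold in opposite directions in 2 lines, and the PTK7 signal lay just above the lowest detected signal of its array, 60.9. Without background correction neither difference reached 2-fold. COL4A3, COL4A4 and COL4A6 were not detected on any array.

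**Figure D4:**
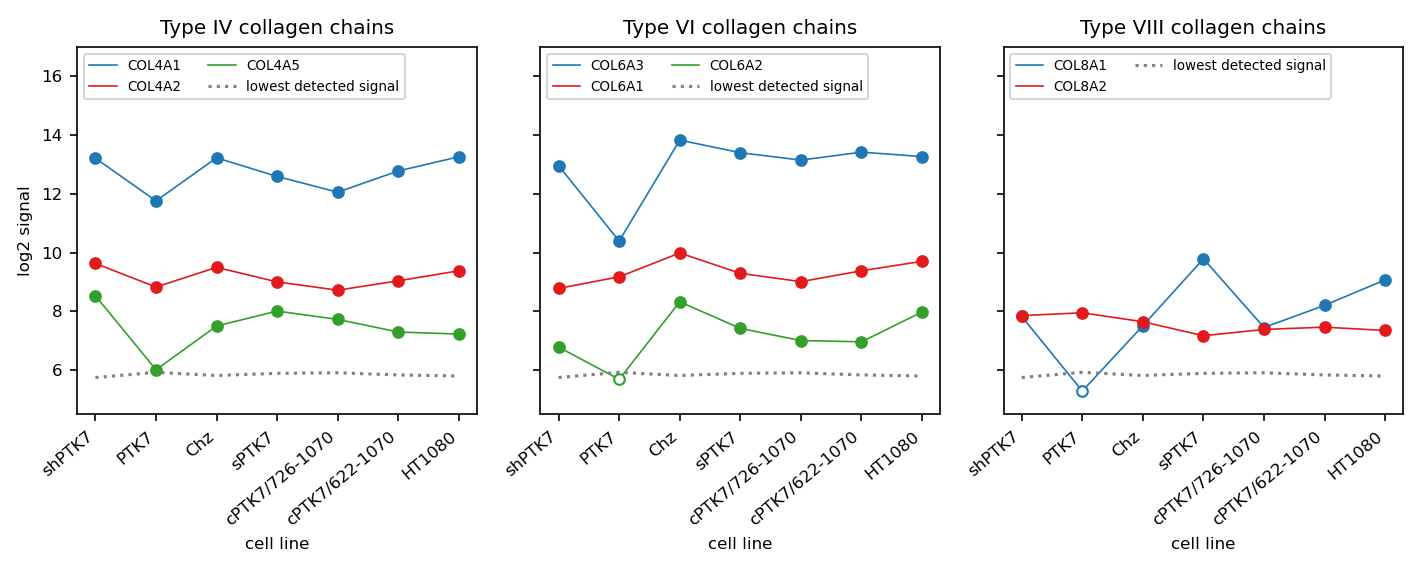
Log2 signal of chains of collagen types IV, VI and VIII in 7 lines, 1 array per line, with filled circles where the gene was detected, open circles where it was not, and a dotted line at the lowest detected signal of each array. COL4A1 and COL4A2 have parallel profiles, COL6A3 drops to 1348 in PTK7 cells while COL6A1 does not, and COL8A1 is highest in sPTK7 cells at 886.

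Type VI collagen forms beaded filaments from COL6A1, COL6A2 and COL6A3 chains, the last being the longest. COL6A3 had signals of 7968 in shPTK7, 1348 in PTK7, 14577 in Chz, 10825 in sPTK7, 9096 in cPTK7/726-1070, 10969.7 in cPTK7/622-1070 and 9882 in HT1080 cells. PTK7 cells alone stood apart, 7.33-fold below HT1080, and the other lines lay between 1.24-fold lower (shPTK7) and 1.48-fold higher (Chz) than HT1080. A second COL6A3 probe had signals of 3255 in shPTK7, 581 in PTK7, 9347 in Chz, 5493 in sPTK7, 5115 in cPTK7/726-1070, 4709 in cPTK7/622-1070 and 4015 in HT1080 cells. Both probes were lowest in PTK7 and highest in Chz cells, and on the second probe the Chz excess passed 2-fold (log2 fold 1.22).

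COL6A1, which encodes a shorter chain of the same molecule, had signals of 441 in shPTK7, 579 in PTK7, 1016 in Chz, 629 in sPTK7, 517 in cPTK7/726-1070, 668 in cPTK7/622-1070 and 835 in HT1080 cells. It differed less than 2-fold from HT1080 in every line, and in PTK7 cells it was 1.44-fold lower. COL6A2, the gene of the other shorter chain, had signals of 110.2 in shPTK7, 321 in Chz, 171 in sPTK7, 129 in cPTK7/726-1070, 125 in cPTK7/622-1070 and 253 in HT1080 cells and was not detected in PTK7 cells on this probe. That put it at least 4.15-fold lower in PTK7, 2.29-fold lower in shPTK7 and 2.02-fold lower in cPTK7/622-1070 cells than in HT1080 cells. The cPTK7/726-1070 value, 1.96-fold lower, fell just short of the limit that the cPTK7/622-1070 value just passed.

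All 3 chains were highest in Chz cells, while the lowest line was PTK7 for COL6A3 and COL6A2 and shPTK7 for COL6A1. Over the 7 arrays Pearson's r was 0.81 between COL6A2 and COL6A3, 0.77 between COL6A1 and COL6A2 and 0.37 between COL6A1 and COL6A3. COL6A2 was undetected on 1 of these arrays, where the lowest detected signal stood in. A second COL6A2 probe was at least 2.37-fold lower in PTK7 cells, but 1.77-fold lower in shPTK7 and 1.06-fold lower in cPTK7/622-1070 cells. The last of its probes had signals between 62.1 and 107 and did detect the gene in PTK7 cells, at 64.8, which was 1.21-fold lower than in HT1080 cells. COL6A5 was detected in sPTK7 cells at 89.5 and in HT1080 cells at 70.4, and COL6A6 on no array.

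**Figure D5:**
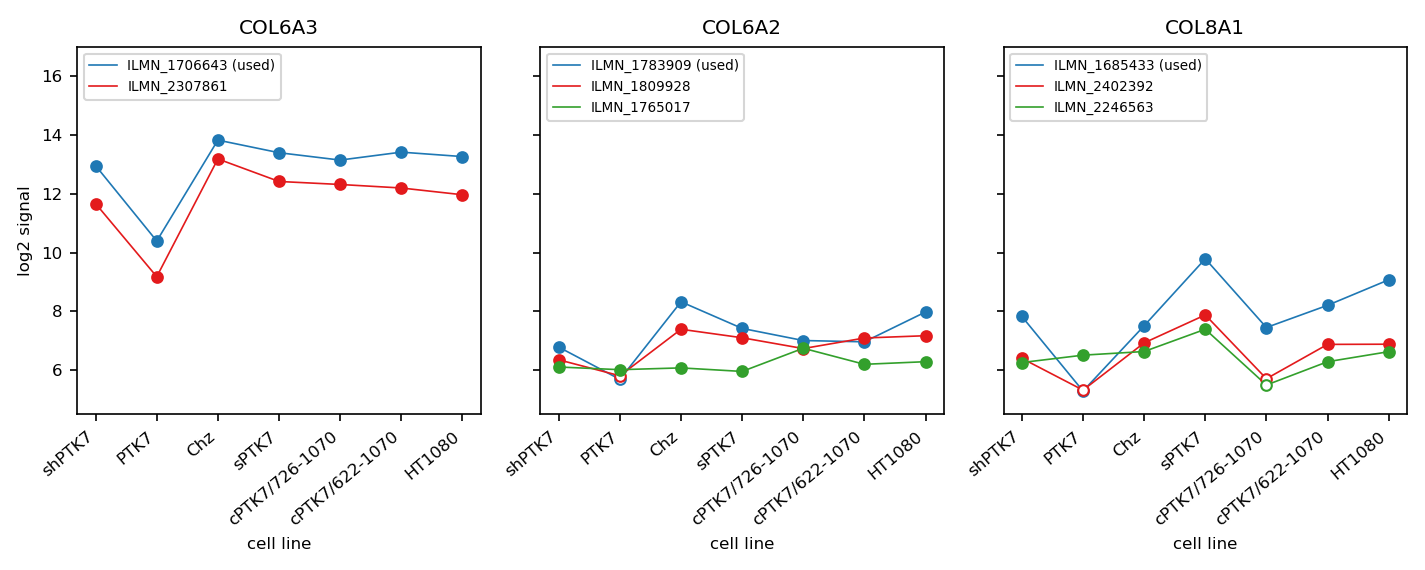
Log2 signal of every detected probe of COL6A3, COL6A2 and COL8A1 in 7 lines, 1 array per line, with the probe used marked in the legend, filled circles for detected and open circles for undetected signals. The probes of COL6A3 are both lowest in PTK7 and highest in Chz cells. The last COL8A1 probe has a detected signal of 91.2 in PTK7 cells, where the other probes of that gene were not detected.

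Among the fibrillar collagens, 7 of 11 genes were detected on some array. COL5A1 encodes the main chain of type V collagen, which starts fibrils and sets their width. It had signals of 263 in shPTK7, 138 in PTK7, 95.7 in Chz, 142 in cPTK7/622-1070 and 416 in HT1080 cells and was not detected in sPTK7 and cPTK7/726-1070 cells. HT1080 cells had the highest signal of the 7 arrays. COL5A1 was at least 7.0-fold lower in sPTK7, at least 6.91-fold lower in cPTK7/726-1070, 4.34-fold lower in Chz, 3.0-fold lower in PTK7 and 2.92-fold lower in cPTK7/622-1070 cells than in HT1080 cells, and 1.58-fold lower in shPTK7 cells.

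Since all of these differences rest on the 1 HT1080 array, the range without it is also given, and it was at least 4.43-fold, between shPTK7 and sPTK7 cells. Set against the median of the 7 arrays instead, COL5A1 was lower by 2-fold or more in sPTK7 and cPTK7/726-1070 cells only. COL5A2, the gene of its partner chain, was detected in shPTK7 at 63.8, in sPTK7 at 63.2 and in cPTK7/726-1070 cells at 94.4, and not in HT1080 cells.

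COL11A2, a type XI chain known from cartilage, was detected in PTK7 cells at 111 and in HT1080 cells at 148 only. It was therefore at least 2.76-fold lower in shPTK7, 2.63-fold in Chz, 2.5-fold in sPTK7, 2.47-fold in cPTK7/726-1070 and 2.59-fold in cPTK7/622-1070 cells, each a bound set by the lowest detected signal. Its 2 other probes were detected on no array, and none of these 5 differences reached 2-fold without background correction. COL27A1, detected on all 7 arrays, lay between 77.3 and 96.3.

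The chains of types I, II and III, which dominate connective tissue and cartilage, were close to or under detection. COL1A1 was detected in shPTK7 cells at 89.6 and in HT1080 cells at 60.8, COL2A1 only in PTK7 cells at 69.9, and COL11A1 in sPTK7 cells at 60.4, with other COL11A1 probes detected in Chz cells at 58.3 and in cPTK7/622-1070 cells at 74.1. COL1A2, COL3A1, COL5A3 and COL24A1 were not detected on any array, although another COL1A2 probe was detected in shPTK7 cells at 60.9.

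COL7A1 encodes the chain of type VII collagen, which forms the fibrils that anchor epithelia to the matrix below. Its signals were 490.3 in shPTK7, 849.7 in PTK7, 432 in Chz, 199 in sPTK7, 339.9 in cPTK7/726-1070, 257 in cPTK7/622-1070 and 266 in HT1080 cells. PTK7 cells exceeded HT1080 cells 3.20-fold, the opposite of the other genes past 2-fold in that line. The shPTK7 and Chz values were 1.84-fold and 1.62-fold higher, and sPTK7 cells were lowest, 1.33-fold below HT1080.

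Type VIII collagen forms hexagonal networks, known from the cornea and vessel walls. COL8A1 had signals of 227 in shPTK7, 183 in Chz, 886 in sPTK7, 175 in cPTK7/726-1070, 296 in cPTK7/622-1070 and 539.6 in HT1080 cells and was not detected in PTK7 cells. Against HT1080 it was at least 8.87-fold lower in PTK7, 3.08-fold lower in cPTK7/726-1070, 2.95-fold lower in Chz and 2.38-fold lower in shPTK7 cells, and 1.64-fold higher in sPTK7 cells. The other COL8A1 probes were also highest in sPTK7 cells, at 236 and 168.

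On those 2 other probes no decrease of COL8A1 could be counted as 2-fold. Neither of them detected the gene in cPTK7/726-1070 cells, where it was at least 1.96-fold and at least 1.65-fold lower. These bounds do not show whether 2-fold was passed there. In PTK7 cells the log2 fold was -0.96 or lower on 1 of them, which did not detect the gene there, and -0.12 on the other. COL8A2, its partner chain, had signals of 232 in shPTK7, 248 in PTK7, 200.5 in Chz, 144 in sPTK7, 167 in cPTK7/726-1070, 177 in cPTK7/622-1070 and 163 in HT1080 cells. The order ran against that of COL8A1 on the probe used, with PTK7 cells highest and sPTK7 cells lowest. On the COL8A1 probe that detected the gene in PTK7 cells, at 91.2 against 99.0 in HT1080 cells, PTK7 was not the lowest line. Pearson's r of the probes used over the 7 arrays was -0.83. COL8A1 was undetected on 1 of these arrays, where the lowest detected signal stood in. A second COL8A2 probe did not share the order of the first, being detected in shPTK7 cells at 73.8 and in cPTK7/622-1070 cells at 59.3 and not in PTK7 cells. COL10A1, the remaining gene of this class, was detected only in Chz cells, at 99.7.

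FACIT collagens, which bind to the surface of fibrils, had 4 of 10 genes detected. COL12A1, found with type I fibrils in tendon and skin, had signals of 184 in shPTK7, 148 in Chz, 309.6 in sPTK7, 98.4 in cPTK7/726-1070, 144 in cPTK7/622-1070 and 242 in HT1080 cells and was not detected in PTK7 cells. It was at least 3.98-fold lower in PTK7 and 2.46-fold lower in cPTK7/726-1070 cells. Another COL12A1 probe was detected only in cPTK7/726-1070 cells, at 66.3, and was at least 1.19-fold higher there, the opposite direction. On the probe used, COL12A1 was, like COL8A1, highest in sPTK7 and undetected in PTK7 cells.

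COL22A1, a FACIT collagen of tissue junctions, was detected in Chz cells at 143, in sPTK7 at 69.1, in cPTK7/726-1070 at 344 and in cPTK7/622-1070 at 85.1. It was not detected in shPTK7, PTK7 and HT1080 cells. It was at least 6.16-fold higher in cPTK7/726-1070 and at least 2.57-fold higher in Chz cells than in HT1080 cells. Under 7 changes of processing, the cPTK7/726-1070 difference stayed past 2-fold in all 7 and the Chz difference in 3. COL16A1 was detected on all 7 arrays between 66.5 in shPTK7 and 173 in PTK7 cells, with 114 in HT1080 cells, and no line differed 2-fold from HT1080. COL14A1 was detected only in cPTK7/726-1070 cells at 61.6, and COL9A1, COL9A2, COL9A3, COL19A1, COL20A1 and COL21A1 were not detected.

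COL18A1 encodes type XVIII collagen of basement membranes, from which endostatin is released. It was detected in PTK7 cells at 98.2, in Chz cells at 112 and in sPTK7 cells at 160.0, and not in shPTK7, cPTK7/726-1070, cPTK7/622-1070 or HT1080 cells. Relative to HT1080 it was at least 2.87-fold higher in sPTK7, 2.01-fold in Chz and 1.76-fold in PTK7 cells. Another COL18A1 probe was detected on no array. Under 7 changes of processing, the sPTK7 difference stayed past 2-fold in 3 and the Chz difference in 1. The related gene COL15A1 was not detected, nor were COL26A1 and COL28A1.

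COL13A1, a collagen that spans the plasma membrane, had the narrowest range of the 5 brightest genes, 1.62-fold. Its signals were 2444 in shPTK7, 2562 in PTK7, 3954 in Chz, 3385 in sPTK7, 3842 in cPTK7/726-1070, 2831 in cPTK7/622-1070 and 2494 in HT1080 cells. The largest difference from HT1080 was 1.59-fold higher in Chz cells. COL23A1 and COL25A1, of the same class, were not detected.

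Genes that make, process, crosslink, bind or degrade collagen were read with the same rule, from lists of chain modification in the endoplasmic reticulum, procollagen processing, crosslinking, fibril-associated proteins, receptors and collagenolytic metalloproteinases. Of 50 detected genes, 1 was higher and 5 were lower in shPTK7 cells, where 1.19% and 1.6% of all detected genes were. In PTK7 cells 1 was higher and 7 were lower (2.46% and 3.52% of all), in Chz cells 3 and 4 (2.05% and 1.77%), and in sPTK7 cells 3 and 4 (1.84% each). In cPTK7/726-1070 cells 1 was higher and 4 were lower (1.49% and 1.56%), and in cPTK7/622-1070 cells 1 and 2 (0.7% and 0.758%). Receptors for collagen had the fewest differences, with ITGA2 2.41-fold lower and ITGA11 2.02-fold higher in PTK7 cells and no other call among 10 detected genes. Among these 10, LAIR1 had signals of 61020 to 64572 on the 7 arrays, and GP6 was detected on 1 array only. Whether the LAIR1 probe was too bright to show a difference was not tested.

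For chain modification, P3H2, which hydroxylates prolines of type IV and other chains, had signals of 625 in shPTK7, 66.4 in PTK7, 119 in Chz, 531 in cPTK7/726-1070, 539.6 in cPTK7/622-1070 and 794 in HT1080 cells and was not detected in sPTK7 cells. It was 11.96-fold lower in PTK7, 6.67-fold lower in Chz and at least 13.4-fold lower in sPTK7 cells. COL4A1 was lower past 2-fold in only the first of these lines. SERPINH1, the collagen chaperone HSP47, had signals of 533 to 783 in the 6 lines, all below 1157 in HT1080 cells, and passed 2-fold in shPTK7 and cPTK7/726-1070 cells. P3H4 was 2.01-fold higher in shPTK7 and 2.06-fold higher in Chz cells, and SEC23A, of the transport vesicle coat, 2.03-fold higher in cPTK7/622-1070 cells.

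In procollagen processing, BMP1, which removes the C-terminal propeptide, was 2.98-fold lower in PTK7 cells, with 187 against 559 in HT1080 cells. Its enhancer PCOLCE was at least 2.46-fold lower in PTK7 and 2.05-fold lower in shPTK7 cells, and PCOLCE2 at least 7.20-fold lower in sPTK7 and 2.17-fold lower in Chz cells. ADAMTS2, which removes the N-terminal propeptide, was detected only in Chz cells, at 209. Of the crosslinking enzymes, LOX was 2.31-fold higher in sPTK7 and 2.11-fold lower in shPTK7 cells, LOXL1 was 4.86-fold lower in shPTK7 cells, and LOXL3 was 3.05-fold lower in PTK7 and 2.35-fold lower in cPTK7/726-1070 cells.

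Among fibril-associated proteins, THBS1 (thrombospondin 1) had signals of 2281 in shPTK7, 1423 in PTK7, 14532 in Chz, 9672 in sPTK7, 276 in cPTK7/726-1070, 1306 in cPTK7/622-1070 and 3519 in HT1080 cells. It was 4.13-fold higher in Chz and 2.75-fold higher in sPTK7 cells, and 12.8-fold lower in cPTK7/726-1070, 2.69-fold lower in cPTK7/622-1070 and 2.47-fold lower in PTK7 cells. SPARC, a collagen-binding protein, was 2.88-fold lower in PTK7 cells, with 3695 against 10644 in HT1080 cells. BGN, the proteoglycan biglycan, was 3.54-fold lower in shPTK7, 3.0-fold in Chz, 2.10-fold in sPTK7 and 2.08-fold in cPTK7/622-1070 cells, and had 837 in PTK7 cells against 796 in HT1080 cells.

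Of 6 metalloproteinases that cut collagen or its denatured form, 4 were detected, and MMP9 and MMP1 passed 2-fold, in opposite directions. MMP2 and MMP14, the gene of MT1-MMP, passed 2-fold in no line. MMP14 was detected on all 7 arrays, from 122 in shPTK7 to 302 in sPTK7 cells. MMP9, a gelatinase, was 5.39-fold lower in sPTK7, 3.61-fold lower in Chz and 2.42-fold lower in cPTK7/726-1070 cells, below an HT1080 signal of 2093. MMP1, the interstitial collagenase, was at least 3.03-fold higher in sPTK7 and 2.13-fold higher in cPTK7/726-1070 cells than in HT1080 cells, which did not detect it.

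The processing decided many of these differences. Without background correction 11 of the 29 differences stayed past 2-fold, and 12 of 29 did with the authors' own normalized values. COL4A1, COL6A3, COL7A1 and COL8A1 in PTK7 cells, COL5A1 in sPTK7 and cPTK7/726-1070 cells, and COL22A1 in cPTK7/726-1070 cells, 7 in all, stayed past 2-fold under each of 7 changes of processing that kept the same probe. Where another probe of the same gene could be read, 2 of 16 comparisons stayed past 2-fold in the same direction. In 11 the direction held without a counted 2-fold difference, and some of these are bounds that may hide larger folds. In 3 it turned, with log2 folds of 0.0454 and 0.0059 for COL8A1 in Chz cells and at least 0.25 for COL12A1 in cPTK7/726-1070 cells.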

How the data were processed

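RNA of 7 HT1080 lines was hybridised, 1 array per line. The deposited non-normalized file gives the intensity of 47230 probes, read out by the authors on an Illumina BeadArray Reader and still on each array's own scale. The detection p value beside each intensity is the deposited one. The authors' normalized table holds linear intensity values with array medians of 176.154 to 176.188. Its direction is known and its method is not named, and it served as an alternative only.

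Starting from that file, the neqc function of limma 3.58.1 (R 4.3.3) removed background estimated from the detection p values, added an offset of 16, quantile-normalized the arrays and took log2. Of the probes, 30112 had 1 gene, 8 had several and 17110 had none in the annotation, and those with several were not named. Probes were joined to genes and counts made with Python 3.11.15, numpy 2.4.6 and pandas 2.3.3, and figures drawn with matplotlib 3.10.9. A difference was counted at 2-fold with a detection p value under 0.05 on the brighter array. The replicate test of the study's methods cannot be run on 1 array per line, so no p-value was computed. Percentages of all genes past 2-fold, of 13580 detected genes, stand beside the counts as background. The counting steps were tested on simulated data, with large changes planted in probes well above background. That test does not cover differences close to 2-fold or signals near the lowest detected level.

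Named were every collagen chain gene past 2-fold in a line, the 5 brightest, partner chains of the same type, up to 4 genes per pathway list with the largest differences, and PTK7. The members, lists and comparisons were chosen with earlier results of these data known. Alternatives were no background correction, 75th percentile scaling, the authors' table, a detection p value under 0.01, the median of 7 arrays as reference, other probes, no floor, and non-normalized signals with a floor of 200. Probes detected per array numbered 19045 to 20515.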

Additional observations from a re-analysis of the deposited data

Results flagged for a closer look

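COL4A5 differed in opposite directions in a pair of lines under the same comparison with HT1080 cells. Its log2 fold was 1.30 in shPTK7 cells and -1.22 in PTK7 cells, with 1 array per line, and the difference between these lines was not tested.

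The second COL6A3 probe, outside the counts above, was higher in Chz than in HT1080 cells by a log2 fold of 1.22, where the probe used gave 0.56.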

How the results depend on the processing

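Each line had 1 array, so no spread between replicates was measured, and signals near the lowest detected level are the least certain. No paired analysis was possible because each line had 1 array. The collagen chain genes past 2-fold numbered 4 in shPTK7, 8 in PTK7, 5 in Chz, 3 in sPTK7, 6 in cPTK7/726-1070 and 3 in cPTK7/622-1070 cells. Without background correction these counts became 0 in shPTK7, 4 in PTK7, 2 in Chz, 1 in sPTK7, 4 in cPTK7/726-1070 and 0 in cPTK7/622-1070 cells. In the authors' normalized table they were 0, 5, 2, 1, 4 and 0 in the same lines, and with non-normalized signals and a floor of 200 they were 0, 5, 1, 1, 4 and 0. Against the 7-array median they were 1 in shPTK7, 2 in Chz, 2 in cPTK7/726-1070 and 0 in cPTK7/622-1070 cells. At a detection p value under 0.01 they were 2 in Chz and 1 in sPTK7 cells. The other counts were within 1.5 times of those reported.

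Pathway genes past 2-fold numbered 6 in shPTK7, 7 in Chz, 7 in sPTK7, 5 in cPTK7/726-1070 and 3 in cPTK7/622-1070 cells. Without background correction, and equally in the authors' table, they were 2 in shPTK7, 4 in Chz, 3 in cPTK7/726-1070 and 1 in cPTK7/622-1070 cells. With the median reference they were 1 in shPTK7, 4 in Chz and 3 in cPTK7/726-1070 cells, and with the floor of 200 they were 2 in shPTK7, 4 in sPTK7 and 1 in cPTK7/622-1070 cells.

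The number of collagen chain genes with a 2-fold range, 13, was 9 to 18 over the other alternatives. It was 13 without the HT1080 array, an alternative chosen after seeing the data. Against the median reference, COL5A1 in cPTK7/622-1070 cells had a log2 fold of 0.0391. On the other COL8A1 probes the log2 fold in Chz cells was 0.0454 and 0.0059, and on another COL12A1 probe that in cPTK7/726-1070 cells was at least 0.25. Scaling to the 75th percentile moved the median of all detected genes to -0.15 in Chz, 0.13 in PTK7 and 0.11 in cPTK7/726-1070 cells. The cause of these changes was not tested.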
